A study of Mus musculus with 6 samples.

Results

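The RNA levels of 10 autophagy genes were examined in RAW264.7 cells, a mouse macrophage line. The genes were taken by name: Sqstm1, Map1lc3b, Gabarapl1, Ulk1, Becn1, Atg5, Atg7, Wipi1, Tfeb and Optn, which are 10 of the 24062 genes in the count tables. RNA was sequenced from 6 conditions. M0 macrophages were left unpolarized, M1 macrophages had been exposed for 24 h to LPS at 100 ng/mL together with IFN-γ at 20 ng/mL, and M2 macrophages for 24 h to IL-4 at 20 ng/mL. RM0, RM1 and RM2 denote these 3 states after 10 Gy of gamma radiation from a cesium source, and were kept for 24 h before RNA was taken. Whether the non-irradiated cells were also kept for that extra time is not stated in the sources used here, so irradiation and time in culture cannot be told apart. The cells are 1 transformed line, although the labels also name bone marrow as the tissue, and RNA of 5 wells was pooled into 1 library per condition, so no difference between 2 libraries has a replicate check. The polarizing doses above are those of the paper's methods, while a figure legend of the paper gives 10 ng/mL for IFN-γ and for IL-4.

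Autophagy wraps pieces of cytoplasm in a double membrane, the autophagosome, and delivers them to lysosomes. A kinase complex containing ULK1 starts the process. A lipid kinase complex containing Beclin 1 (Becn1) marks the membrane, WIPI proteins read that mark, and ATG7 and ATG5 take part in attaching small ubiquitin-like proteins of the ATG8 family, which include LC3B (Map1lc3b) and GABARAPL1, to the growing membrane. Sequestosome 1, also called p62 (Sqstm1), and optineurin (Optn) tie ubiquitin-marked cargo to ATG8 proteins, and TFEB is a transcription factor for autophagy and lysosome genes. In macrophages the same machinery handles swallowed microbes, damaged mitochondria and inflammasome parts. RNA levels do not measure autophagic flux, since p62 and lipid-bound LC3B are themselves degraded in lysosomes.

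Upstream sequence was available from RefSeq (GRCm38.p6, the build of the count tables) for 9 of the 10 genes, in 11 regions, since Tfeb had 3 listed starts. No entry was matched for Becn1. In the 250 bases before each start, 4 motifs were considered on both strands, spelled as an E-box (CACGTG, the core that TFEB and related factors bind), an antioxidant response element core (TGACNNNGC, for NRF2), an ISRE core (GAAANNGAA, for interferon regulatory factors) and an AP-1 site (TGANTCA). The E-box letters were found before Atg5 and before an internal start of Atg7, and before none of the other 7 matched genes, and are present in 6.02% of all 32851 upstream regions in the same table. The antioxidant (10.2% of all regions), ISRE (7.13%) and AP-1 (6.75%) letters were found before none of the 9. These matches are descriptions of letters and were not tested as binding sites. The sequences before Atg5 and Atg7, which act in the same conjugation of ATG8 proteins to lipid, are shown because they hold the E-box matches. They are read 5′ to 3′ on the strand of the gene, with the motif in capitals. For Atg5 this is chr10:44268089-44268338 on the plus strand, with the E-box from 14 to 9 bases before the start. For Atg7 it is chr6:114670846-114671095 on the plus strand, with the E-box from 132 to 127 bases before a start that lies 28 kb inside the gene, whose listed coordinates begin at 114643097. It is therefore not the sequence before the listed start of Atg7. The listed coordinates of Atg5 run from 44362916 to 44364291, so the Atg5 sequence does not lie just before its listed start either. It lies before the annotated start of the Atg5 gene, at 44268358.
Atg5: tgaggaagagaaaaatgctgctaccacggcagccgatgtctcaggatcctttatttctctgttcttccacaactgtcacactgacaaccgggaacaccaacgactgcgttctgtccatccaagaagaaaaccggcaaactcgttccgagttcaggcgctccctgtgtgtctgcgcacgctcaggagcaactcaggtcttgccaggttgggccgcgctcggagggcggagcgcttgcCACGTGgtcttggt
Atg7: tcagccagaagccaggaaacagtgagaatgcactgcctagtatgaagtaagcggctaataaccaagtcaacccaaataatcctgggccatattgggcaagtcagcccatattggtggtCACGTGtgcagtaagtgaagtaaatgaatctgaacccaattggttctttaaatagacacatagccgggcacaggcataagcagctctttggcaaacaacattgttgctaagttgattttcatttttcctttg

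The libraries held from 17894937 to 18870516 counted reads. Counts were scaled by TMM (trimmed mean of M values, edgeR), whose factors were 0.8119 in M1 and 0.8764 in RM1 and from 1.045 to 1.135 in the other 4 libraries. All 8 macrophage markers looked for were found, with from 646 to 580239 counts, while 7 of 14 markers of other cell types were at 0 in every library and the most abundant of them reached 47 counts. The summed level of those 14 markers was from 2.37 to 4.34 CPM (counts per library scaled by TMM to a common size). Nos2, which encodes the M1 marker iNOS, had 728 CPM in M0 and 11331 in M1, and the M1 marker Cd86 had 8.9 CPM in M0 and 32.9 in M1. The M2 marker Arg1 was at 0 counts in M0 but at 31 in M2 and 89 in RM2. Mrc1, another M2 marker, did not follow the labels, with 10 counts in M0 and 6 in M2 but 50 in M1, and 5 in RM0, 12 in RM2 and 26 in RM1.

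The choice of scaling bears on each M1 result. With library totals in place of TMM, the median log2 fold change of all genes in M1 against M0 moved from -0.05 to -0.46, that in RM1 against RM0 from 0.00 to -0.25 and that in RM1 against M1 from 0.02 to 0.13. Differences below are therefore given relative to TMM-scaled totals, with the library-total value beside each M1 difference of the 10 genes whose sign turns. In the M2 comparisons the sign turned for 6 of 18 values, which lay between -0.06 and -0.01, and in the irradiation comparisons for 5 of 27, which lay between -0.10 and 0.03. In bulk RNA, fewer cells and less RNA per cell cannot be told apart.

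Sqstm1 was by far the most abundant of the 10 genes. Its gene (NM_001290769, chromosome 11, 50200152 to 50210820, minus strand) had 88989 counts in M0, 90859 in M2, 81156 in RM0 and 79016 in RM2, against 75625 in M1 and 65792 in RM1. These were between 0.349% (RM1, 95% Clopper-Pearson interval 0.3460 to 0.3513) and 0.508% (M2, 0.5044 to 0.5110) of all counted reads, and p62 mRNA ranked from 9 in M2 to 20 in RM1 among all genes by count. Sqstm1 supplied between 85% and 90.2% of the reads of the 10 genes together. Intervals here and below cover counting error only.

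Per kilobase of the longest transcript, the other genes lay far below. The median over the 6 libraries was 1615 CPM per kilobase for Sqstm1, 54.7 for Gabarapl1, 33 for Map1lc3b, 24.3 for Atg7, 22.8 for Becn1 and 16.9 for Atg5. It was 4.75 for Ulk1, 3.93 for Tfeb, 2.82 for Wipi1 and 0.0449 for Optn. Within each library the order was mostly the same. Atg7 (19.9 to 28.8) was above Becn1 (22.2 to 27.8) in 3 of 6 libraries and Tfeb (2.73 to 5.35) above Wipi1 (2.57 to 5.43) in 4 of 6, so these neighbours are not resolved. Ulk1 (4.07 to 6.37) was above both Tfeb and Wipi1 in 6 of 6, and Atg7 was above Atg5 (13.9 to 21) in 6 of 6, although their ranges over libraries overlapped. Gabarapl1 (51.4 to 135) did not overlap Map1lc3b (30.6 to 43.8). In plain CPM, Map1lc3b was above Gabarapl1 in M0 (131 against 102), M2 (135, 97.4), RM0 (139, 97.5) and RM2 (126, 93.5). It was below in M1 (181 against 246) and RM1 (181 against 186). The order of Gabarapl1 and Map1lc3b thus rests on the transcript lengths used, 1820 and 4138 bases. For Atg5 the coordinates listed in the tables cover 1.43% of the annotated gene and for Gabarapl1 52.7%, against 85.7% to 100% for the other 8, so where the reads of those 2 genes lie is not known and their per-kilobase values are less certain.

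Optn was nearly silent. It had 2 counts in M0, 6 in M2, 0 in RM0 and 2 in RM2, against 2 in M1 and 3 in RM1. The count of 0 in RM0 allows a level of up to 0.154 CPM, that of 3 counts. Optn did not pass the filter on low counts, its folds are not counted, and the other 9 genes are those meant below. A difference in optineurin mRNA was not detectable at this depth.

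**Figure D1:**
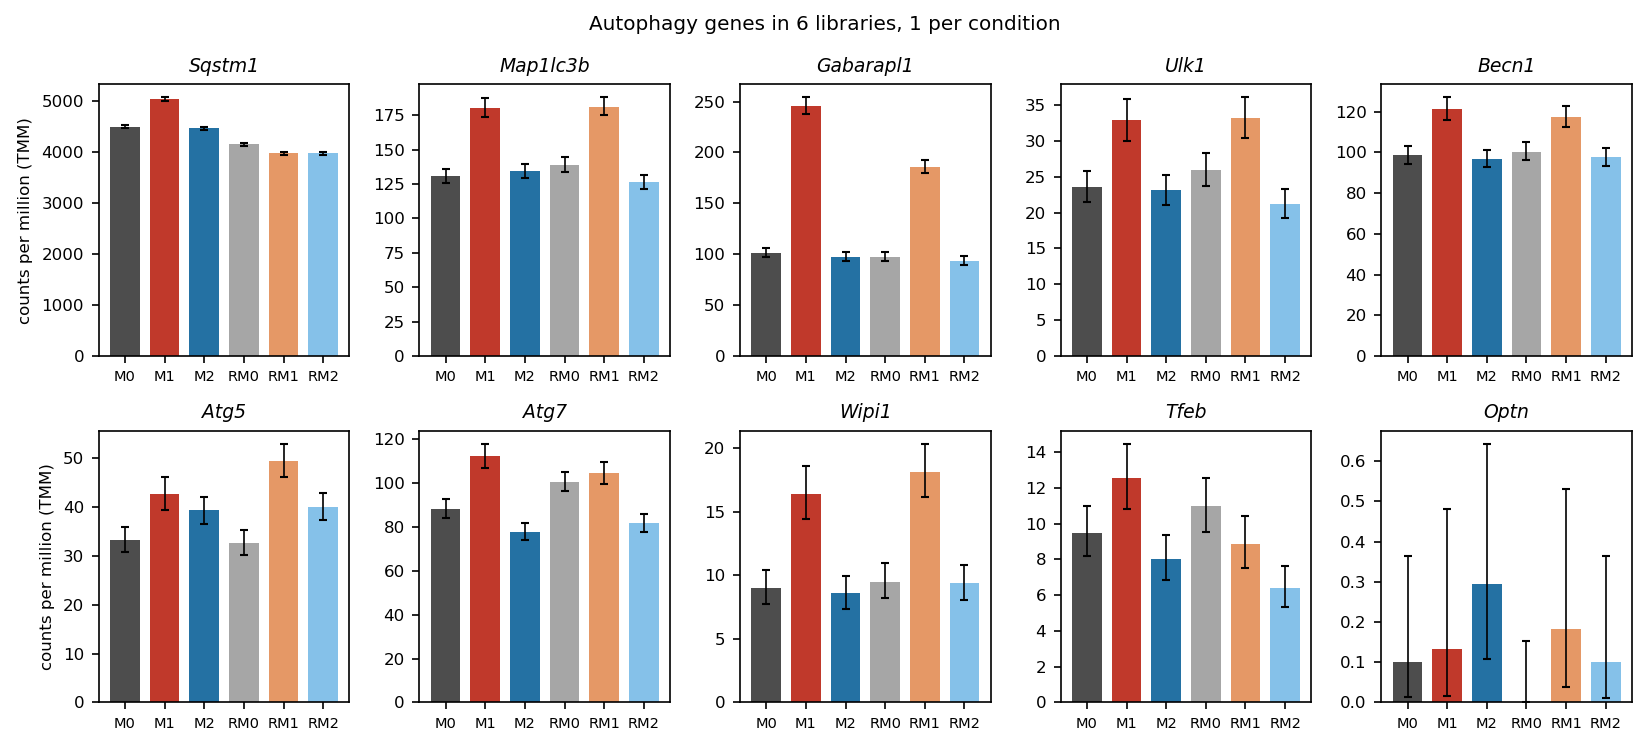
TMM-scaled CPM of each of the 10 genes in the 6 libraries, 1 bar per library, with exact Poisson intervals at 95% (for the count of 0, up to the level of 3 counts) that cover counting error only. Each panel has its own axis from 0. Gabarapl1 stands at 246 in M1 and 186 in RM1 against 93.5 to 102 in the other 4 libraries, and Wipi1 at 16.4 and 18.1 against 8.57 to 9.49.

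To see how M1 polarization relates to these genes, M1 was compared with M0, and RM1 with RM0. Gabarapl1 and Wipi1 stood out in both pairs, which share no library. A gene was called between 2 libraries at a 2-fold difference with at least 10 counts in 1 of them. By that rule 1 of the 9 genes, Gabarapl1, was called higher in M1 and 0 lower, where 8.98% of 11778 genes were called higher and 22.7% in either direction. In RM1 against RM0, 0 of 9 were called, where 14.1% of genes were called.

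Gabarapl1 (NM_020590, chromosome 6, listed from 129537491 to 129542331, plus strand) had 2010 counts in M0, 1978 in M2, 1901 in RM0 and 1856 in RM2, against 3689 in M1 and 3077 in RM1. Both M1 libraries were above all 4 others, which lay close together. The log2 fold change was 1.27 (95% counting interval 1.20 to 1.35) in M1 against M0 and 0.93 (0.85 to 1.02) in RM1 against RM0. With library totals these were 0.86 and 0.68. GABARAPL1 is an ATG8 protein of the GABARAP branch, which also includes GABARAP and GABARAPL2.

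Wipi1 (NM_145940, chromosome 11, 109573521 to 109611389, minus strand), whose product binds phosphatidylinositol 3-phosphate at the forming autophagosome, had 178 counts in M0, 174 in M2, 185 in RM0 and 186 in RM2, against 246 in M1 and 300 in RM1. Here too the M1 libraries were both above the other 4. The log2 fold change was 0.86 (0.58 to 1.15) in M1 against M0 and 0.93 (0.67 to 1.21) in RM1 against RM0, or 0.44 and 0.68 with library totals. Both genes passed 1.5-fold in both pairs, and Atg5 passed it in RM1 against RM0 only (0.35 with library totals). At that threshold 19.1% of all genes were higher in M1 against M0 and 14.9% in RM1 against RM0.

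The other genes differed less. Map1lc3b (NM_026160) had 2589 counts in M0, 2733 in M2, 2710 in RM0 and 2509 in RM2, against 2707 in M1 and 2998 in RM1. This gave log2 fold changes of 0.46 (0.39 to 0.54) in M1 against M0 and 0.38 (0.31 to 0.46) in RM1 against RM0. Ulk1 (NM_009469) had 466 counts in M0, 470 in M2, 507 in RM0 and 421 in RM2, against 493 in M1 and 549 in RM1, with log2 fold changes of 0.48 (0.29 to 0.67) and 0.35 (0.18 to 0.53) in the 2 M1 pairs. For both genes, raw counts in M1 and M0 were nearly level and that difference rests on the low TMM factor of M1: with library totals the log2 fold changes were 0.05 and 0.06. In RM1 against RM0 they were 0.13 and 0.10 with library totals, smaller than with TMM but not level.

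Atg5 and Atg7 act in the conjugation of ATG8 proteins to lipid. Atg5 (NM_053069) had 660 counts in M0, 799 in M2, 636 in RM0 and 795 in RM2, against 641 in M1 and 818 in RM1. Its log2 fold change was 0.36 (0.20 to 0.52) in M1 against M0, which turned to -0.06 with library totals, and 0.60 (0.45 to 0.75) in RM1 against RM0. Atg7 (NM_001253718) had 1748 counts in M0, 1577 in M2, 1961 in RM0 and 1620 in RM2, against 1685 in M1 and 1729 in RM1. It showed a log2 fold change of 0.35 (0.25 to 0.44) in M1 against M0, or -0.07 with library totals, and 0.06 (-0.04 to 0.15) in RM1 against RM0, or -0.20 with library totals.

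Becn1 (NM_019584) was the steadiest in raw counts, at 1953 in M0, 1970 in M2, 1959 in RM0 and 1936 in RM2, against 1820 in M1 and 1944 in RM1. Its product is the scaffold of the lipid kinase complex. Its highest and lowest libraries differed 1.25-fold after scaling, with a log2 fold change of 0.30 (0.20 to 0.39) in M1 against M0, or -0.12 with library totals, and 0.23 (0.14 to 0.32) in RM1 against RM0, or -0.03 with library totals. Sqstm1 showed 0.16 (0.15 to 0.18) in M1 against M0, or -0.25 with library totals, and -0.06 (-0.08 to -0.05) in RM1 against RM0. This last value was -0.32 with library totals and 0.06 with the GC trend removed. Tfeb (NM_001161722) had 188 counts in M0, 163 in M2, 214 in RM0 and 127 in RM2, against 188 in M1 and 147 in RM1. Its values in the 2 M1 pairs lay on opposite sides of 0, with 0.40 (0.10 to 0.70) in M1 against M0, or -0.02 with library totals, and -0.30 (-0.62 to 0.01) in RM1 against RM0. The latter was -0.55 with library totals. With the GC trend removed the 2 values were 0.36 and 0.00, so the opposite signs depend on the scaling.

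Over the 9 genes, the log2 fold changes had a median of 0.40 in M1 against M0, against -0.05 over all genes, and 0.35 in RM1 against RM0, against 0.00. With library totals the medians were -0.02 against -0.46 and 0.10 against -0.25.

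For an M1 difference shared by both pairs, the quasi-likelihood test of edgeR was run over all 6 libraries, with polarization and irradiation as terms and Benjamini-Hochberg adjustment over 11574 genes. The 2 pairs stand in for replicates, and the test assumes the same M1 difference in both. Of the 9 genes 5 rose in M1 and 0 fell, where 22.9% of all genes rose and 47.6% changed in either direction. Gabarapl1 rose by 1.11 on the log2 scale (SE 0.129, adjusted p = 8.12e-05) and Wipi1 by 0.90 (SE 0.161, adjusted p = 0.00118). Atg5 rose by 0.48 (adjusted p = 0.00978), Map1lc3b by 0.42 (adjusted p = 0.0118) and Ulk1 by 0.42 (adjusted p = 0.0245). Becn1 (0.26, adjusted p = 0.0785), Atg7 (0.20, adjusted p = 0.195), Sqstm1 (0.05, adjusted p = 0.809) and Tfeb (0.05, adjusted p = 0.872) did not pass. With library totals Gabarapl1 and Wipi1 passed as higher (adjusted p = 0.00115 and 0.0271), the other 3 calls were lost, and Sqstm1 passed as lower, with a log2 fold change of -0.29 (adjusted p = 0.0424). Under that scaling 1091 of all 11574 genes passed as higher and 4750 as lower, so a fall was common. Ulk1 was lost with DESeq2 (adjusted p = 0.0553), and Map1lc3b and Ulk1 were lost without M2 and RM2.

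**Figure D2:**
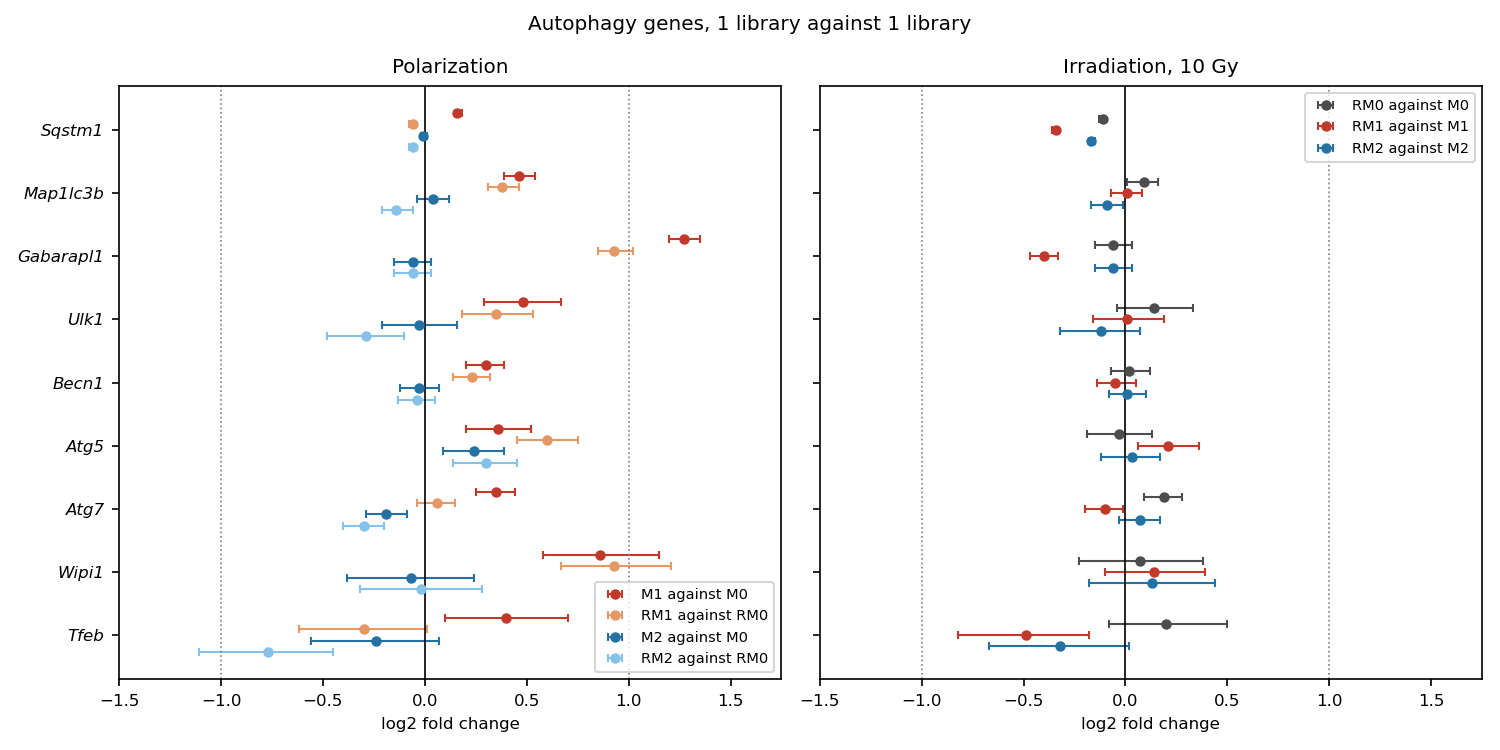
Log2 fold changes of the 9 genes that passed the count filter, between single libraries, with 95% counting intervals. Polarized against unpolarized libraries are on the left and irradiated against non-irradiated libraries on the right, and dotted lines mark 2-fold. Only Gabarapl1 in M1 against M0 (1.27) lies beyond 2-fold, and in the irradiation panel all values lie between -0.49 and 0.21.

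M2 polarization was compared in the same way, M2 with M0 and RM2 with RM0. None of the 9 genes was called in either pair (background 1.44% and 2.6% of genes). Their median log2 fold change was -0.03 and -0.06, or 0.04 and 0.00 with library totals. The transcription factor gene Tfeb had the lowest value in both pairs, -0.24 (-0.56 to 0.07) and -0.77 (-1.11 to -0.45), and in RM2 against RM0 it was past 1.5-fold (3.95% of genes were lower at that threshold). With the trend of fold changes with GC content removed, the latter was -0.42, and the GC content of the Tfeb transcript was 63.2%, the highest of the 10 genes. Atg5 had the highest value, with 0.24 (0.09 to 0.39) and 0.30 (0.14 to 0.45), and Atg7 showed -0.19 (-0.29 to -0.09) and -0.30 (-0.40 to -0.20). For the 6 others the values ranged between -0.29 (Ulk1, RM2 against RM0) and 0.04.

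In the edgeR test 0 of the 9 genes passed for M2 polarization, where 0.242% of all genes did. Tfeb alone had an unadjusted p under 0.05 (10.3% of all genes did), with a log2 fold change of -0.52 (SE 0.208, unadjusted p = 0.0303, adjusted p = 0.467). DESeq2 gave 0 calls and 0 genes at an unadjusted p under 0.05 (5.32% of all genes). Without M1 and RM1, Tfeb passed, with a log2 fold change of -0.49, but the share of all genes that passed in that fit is not given here.

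To see how irradiation relates to these genes, RM0 was compared with M0, RM1 with M1 and RM2 with M2. None of the 9 genes reached 2-fold or 1.5-fold in any of the 3 comparisons, where 1.54%, 5.32% and 1.97% of all genes were called at 2-fold and 5.96%, 18.1% and 7.2% passed 1.5-fold. Their median log2 fold changes were 0.07, -0.05 and -0.06, against 0.00, 0.02 and -0.00 over all genes. With library totals the median in RM1 against M1 was 0.06. These comparisons share the M0, M1 and M2 libraries with the polarization comparisons above, so a high value in M1 also lowers RM1 against M1.

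Sqstm1 had fewer counts in each irradiated library than in its counterpart. Its log2 fold change was -0.11 (-0.13 to -0.10) in RM0 against M0, -0.34 (-0.36 to -0.33) in RM1 against M1 and -0.17 (-0.18 to -0.15) in RM2 against M2. The sign held with library totals (-0.17, -0.23 and -0.22) and with the GC trend removed (-0.14, -0.23 and -0.10). Counting intervals are narrow at these counts and leave out the spread between cultures. In the test over the 3 states its log2 fold change was -0.21 (SE 0.126, adjusted p = 0.463).

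Gabarapl1 showed -0.06 in RM0 against M0 and -0.06 in RM2 against M2, both with counting intervals from -0.15 to 0.03, and -0.40 (-0.47 to -0.33) in RM1 against M1. Its level in RM1 was below that in M1 and above that in the other 4 libraries. Tfeb had 0.20 (-0.08 to 0.50), -0.49 (-0.82 to -0.18) and -0.32 (-0.67 to 0.02), and with the GC trend removed the last 2 values were -0.21 and -0.15. Wipi1 showed 0.07, 0.14 and 0.13, each with an interval that included 0, and Becn1 between -0.05 and 0.02, with a sign that turned with library totals in each state. Atg5 differed in RM1 against M1 by 0.21 (0.06 to 0.36), or 0.05 with the GC trend removed.

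None of the 9 genes passed the edgeR test for irradiation, where 0.458% of all genes did. The smallest adjusted p was 0.449 (Gabarapl1, log2 fold change -0.18, SE 0.104), and 0 of the 9 had an unadjusted p under 0.05 with edgeR or with DESeq2. The SE of the other 8 genes was between 0.0925 and 0.17 on the log2 scale.

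The rest of the ATG8 family was set beside Gabarapl1 and Map1lc3b. Per kilobase of transcript Gabarap was the most abundant of the 5 family genes in every library. Its level was 203 CPM per kilobase in M0, 199 in M2, 210 in RM0 and 202 in RM2, against 420 in M1 and 346 in RM1. In raw counts it stood at 8515 in M1 and 7723 in RM1, with from 5409 to 5536 in the other 4. The log2 fold change of Gabarap was 1.05 (1.00 to 1.10) in M1 against M0 and 0.72 (0.67 to 0.77) in RM1 against RM0. Gabarapl2, named here to complete the family, showed 0.06 (-0.04 to 0.16) and 0.08 (-0.01 to 0.18), which turned to -0.36 and -0.17 with library totals. Map1lc3a showed 0.66 (0.46 to 0.87) and 0.43 (0.23 to 0.64).

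In the edgeR test Gabarap rose by 0.89 (adjusted p = 0.000364) and Map1lc3a by 0.55 (adjusted p = 0.00921) in M1, and with library totals Gabarap still passed (0.55, adjusted p = 0.00348) and Map1lc3a did not (adjusted p = 0.266). The summed level of the family was 364 CPM per kilobase in M0, 351 in M2, 371 in RM0 and 345 in RM2, against 685 in M1 and 574 in RM1. Gabarap and Gabarapl1 made up 81.1% of it in M1 and 78% in RM1, against 71.1% in M0, 72.1% in M2, 71.1% in RM0 and 73.3% in RM2. Within a library these shares do not depend on the scaling. The share of Gabarapl2 was 15.7% in M0, 8.72% in M1 and 10.4% in RM1, and that of Map1lc3b 8.68%, 6.37% and 7.63%. Of the 100-base windows of the Gabarapl2 transcript 9.57% were also found in other genes' transcripts, and of those of Map1lc3b 3.09%, so some of their reads may have been assigned elsewhere.

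**Figure D3:**
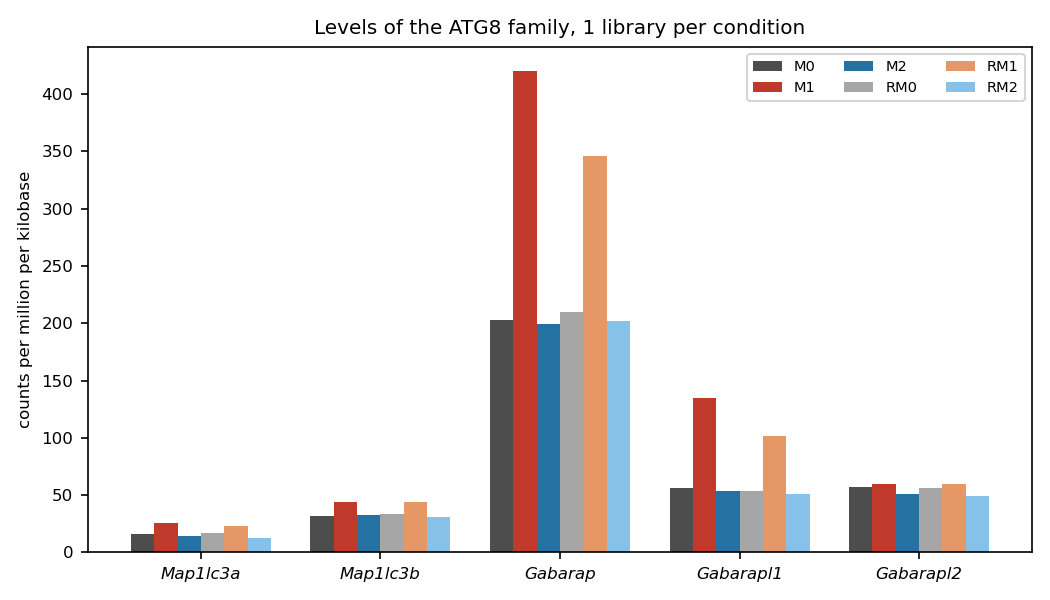
Levels of the 5 ATG8 family genes in CPM per kilobase of the longest transcript, 1 bar per library. Gabarap reaches 420 in M1 and 346 in RM1 against 199 to 210 in the other libraries, and Gabarapl1 135 and 102 against 51.4 to 55.8, while Gabarapl2 lies between 49.3 and 59.8 throughout.

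A wider list of 72 autophagy genes in 10 role groups, without the 10 genes above, was then examined. All 72 were found and 71 could be tested, since the sestrin gene Sesn3 had at most 1 count per library. Of genes named below, the listed coordinates cover 18.8% of the annotated gene for Rptor, 43.1% for Wdr45 and 46.5% for Snap29. They cover 47.7% for Tollip and 60.9% for Dram1, so where the reads of these genes lie is not known. In M1 against M0, 2 of 71 were called higher and 5 lower, where 8.98% of genes were called higher and 13.7% lower, and the median log2 fold change was 0.07, or -0.34 with library totals. In RM1 against RM0, the median was 0.09, or -0.17 with library totals, and 0 were called higher and 1 lower, where 7.84% of genes were lower.

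In the test over both M1 pairs 13 of the 71 genes rose and 13 fell, where 22.9% of all genes rose and 24.7% fell. With DESeq2 10 rose and 10 fell, where 2361 of all 11574 genes rose and 2110 fell. With library totals 4 rose and 24 fell, where 1091 of all genes rose and 4750 fell. The split by direction thus depends on the scaling, in this list and over all genes. The calls lost with DESeq2 were the rises of Nrbf2, Tmem41b and Fundc1 (adjusted p = 0.0901, 0.0631 and 0.102) and the falls of Deptor, Epg5 and Rragd (adjusted p = 0.0713, 0.0696 and 0.076). Of the rises those of Gabarap, Atg12, Mitf and Dram1 also passed with library totals.

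Of the 7 genes of the class III PI3-kinase complex and its partners 1 rose and 1 fell. Pik3c3, which encodes the lipid kinase VPS34, had 443 counts in M0, 426 in M2, 433 in RM0 and 448 in RM2, against 160 in M1 and 177 in RM1, and fell in M1 with a log2 fold change of -1.06 (SE 0.146, adjusted p = 0.000242). Nrbf2, which encodes a partner of that complex, rose by 0.37 (adjusted p = 0.0444). Of the 8 genes of phagophore membrane supply 2 rose and 2 fell, and 1 of the rises was that of Tmem41b, a lipid scramblase gene (0.36, adjusted p = 0.0303). Of the 4 genes for the WIPI family of readers, Wipi1 and Wdr45b (0.45, adjusted p = 0.0162) rose. Wipi2 and Wdr45 fell by 0.90 and 1.05 on the log2 scale (adjusted p = 0.000343 and 0.000142). Wipi2 had 3664 counts in M0, 3563 in M2, 3786 in RM0 and 3429 in RM2, against 1329 in M1 and 1918 in RM1, so that its 2 M1 libraries were below the other 4, where those of Wipi1 were above. The opposite signs of Wipi1 and Wipi2 held with library totals (0.57 and -1.23), while the rise of Wdr45b did not pass there (0.11, adjusted p = 0.487).

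Among the conjugation genes Atg12, whose product is joined to ATG5, rose by 0.92 (adjusted p = 0.00018) and Atg3, which encodes the enzyme that carries ATG8 proteins to lipid, fell by 0.60 (adjusted p = 0.00279). Among cargo receptors Tollip (0.63, adjusted p = 0.00227) and the mitochondrial receptor gene Fundc1 (0.38, adjusted p = 0.0427) rose, and Calcoco1 (-0.87, adjusted p = 0.000326) and the mitochondrial receptor gene Bnip3 (-0.57, adjusted p = 0.017) fell. The rises of Tollip and Fundc1 did not pass with library totals (adjusted p = 0.0563 and 0.817). Of the 4 transcriptional regulators beside Tfeb only Mitf, a relative of TFEB, passed, and it rose by 0.83 (adjusted p = 0.000555).

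Of 12 genes of upstream kinases and nutrient signalling 1 rose and 5 fell, against 22.9% and 24.7% of all genes. Prkaa1, a catalytic subunit gene of AMPK, rose by 0.53 (adjusted p = 0.00656, or 0.22 with library totals). Rptor, which encodes the mTORC1 subunit Raptor, and Deptor, which encodes an mTOR inhibitor, fell by 0.62 and 0.63 (adjusted p = 0.00181 and 0.0326). Rragd, a Rag GTPase gene, had 27 counts in M0, 30 in M2, 24 in RM0 and 34 in RM2, against 2 in M1 and 12 in RM1, and fell by 1.57 (SE 0.539, adjusted p = 0.033), a call that rests on few counts. Among the p53-linked genes the lysosomal membrane gene Dram1 rose by 1.02 (adjusted p = 0.000463), with 655 counts in M0, 1207 in M1, 683 in RM0 and 967 in RM1, and the sestrin gene Sesn2 fell by 0.51 (adjusted p = 0.00675). Of the remaining groups, the initiation kinase complex had 1 of 4 genes higher (Atg13, 0.51, adjusted p = 0.00768) and the fusion machinery 1 of 7 higher (Snap29, 0.49, adjusted p = 0.0061) and 1 lower (Epg5, -0.39, adjusted p = 0.0307).

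**Figure D4:**
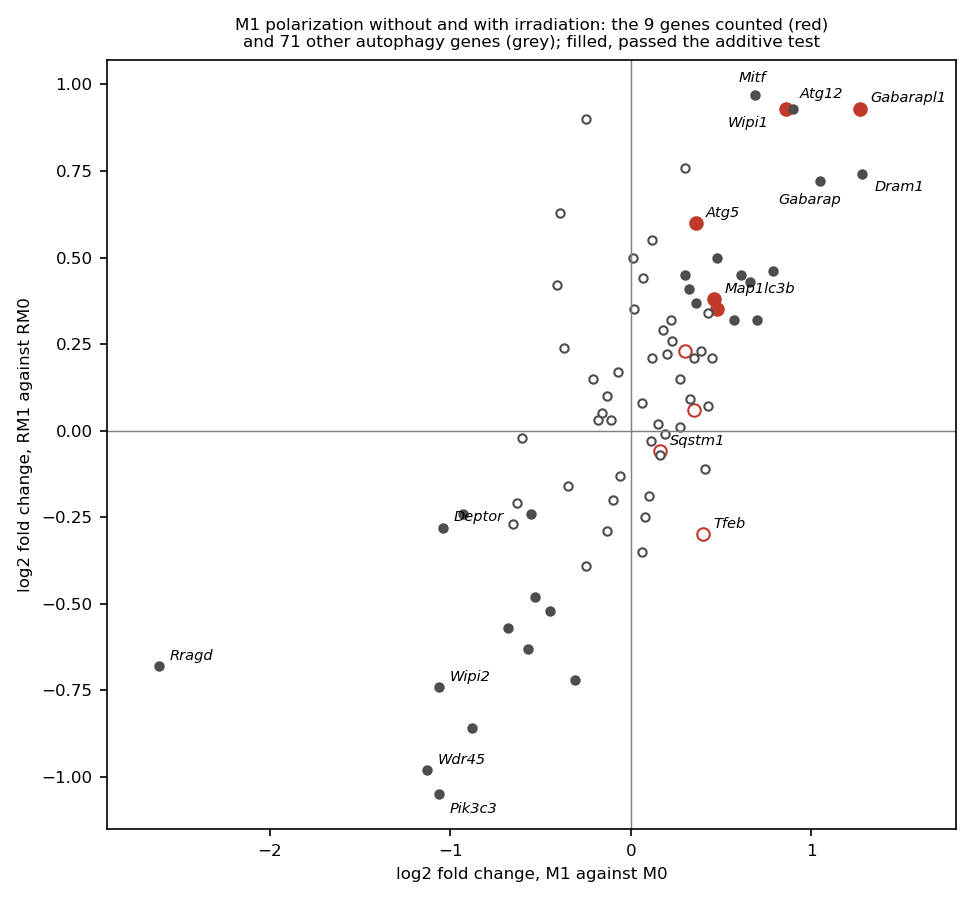
Log2 fold changes in M1 against M0 (horizontal axis) and in RM1 against RM0 (vertical axis) for 80 autophagy genes, the 9 counted genes in red and 71 others in grey. Filled points (31) passed the edgeR test for M1 polarization. The pairs share no library. Gabarapl1 (1.27, 0.93) and Wipi1 (0.86, 0.93) lie at the upper right beside Dram1, Gabarap, Atg12 and Mitf, and Pik3c3, Wdr45 and Wipi2 at the lower left.

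In M2 against M0 and in RM0 against M0, 0 of the 71 genes reached 2-fold or 1.5-fold (4.9% and 5.96% of all genes passed 1.5-fold). In RM2 against RM0, 0 were higher and 1 was lower (background 0.97% lower). This was Atg4a, which encodes a protease that trims ATG8 proteins, with 51 counts in M0, 49 in M2, 38 in RM0 and 12 in RM2, against 48 in M1 and 56 in RM1. Its log2 fold change was -1.53 (-2.76 to -0.72) in RM2 against RM0 and -1.82 (-3.04 to -1.06) in RM2 against M2, where it was also the single gene called of 71 (1.97% of genes were). In both, the value rests on the RM2 library.

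In RM1 against M1, 3 of 71 genes were called higher and 0 lower, where 3.23% of genes were higher. Ddit4, which encodes an mTORC1 inhibitor induced by stress, had 714 counts in M1 and 2070 in RM1. The log2 fold change was 1.39 (1.27 to 1.52), against 0.24 (0.13 to 0.36) in RM0 against M0 and 0.17 (0.05 to 0.30) in RM2 against M2. Trp53inp1, a p53 target whose product binds ATG8 proteins, had 206 counts in M0, 214 in M2, 245 in RM0 and 337 in RM2, against 119 in M1 and 322 in RM1. Its log2 fold changes after irradiation were 0.27 (-0.00 to 0.54), 1.28 (0.99 to 1.61) and 0.68 (0.44 to 0.94) in the M0, M1 and M2 states. The third, Rragd, had 2 and 12 counts, with a log2 fold change of 1.79 (0.28 to 5.65). Whether the irradiation difference of these genes differs between states was not tested.

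In the edgeR test over the 3 states 0 of 71 genes passed for irradiation and 13 had an unadjusted p under 0.05, as did 14.8% of all genes. DESeq2 gave 1 call and 7 genes at an unadjusted p under 0.05 (9.05% of all genes). The smallest edgeR value was that of Wdfy3, named here for it, which encodes the adaptor ALFY for protein aggregates and had log2 fold changes of 0.44 (0.38 to 0.51), 0.67 (0.60 to 0.74) and 0.40 (0.34 to 0.46) after irradiation of M0, M1 and M2. The shared value was 0.50 (SE 0.0996, adjusted p = 0.0628), and DESeq2 called it (adjusted p = 0.0109). Trp53inp1 had a shared value of 0.74 (SE 0.18, adjusted p = 0.118). For M2 polarization 0 of 71 passed with edgeR and 4 had an unadjusted p under 0.05, against 10.3% of all genes, and DESeq2 gave 0 calls and 2 genes at an unadjusted p under 0.05.

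**Figure D5:**
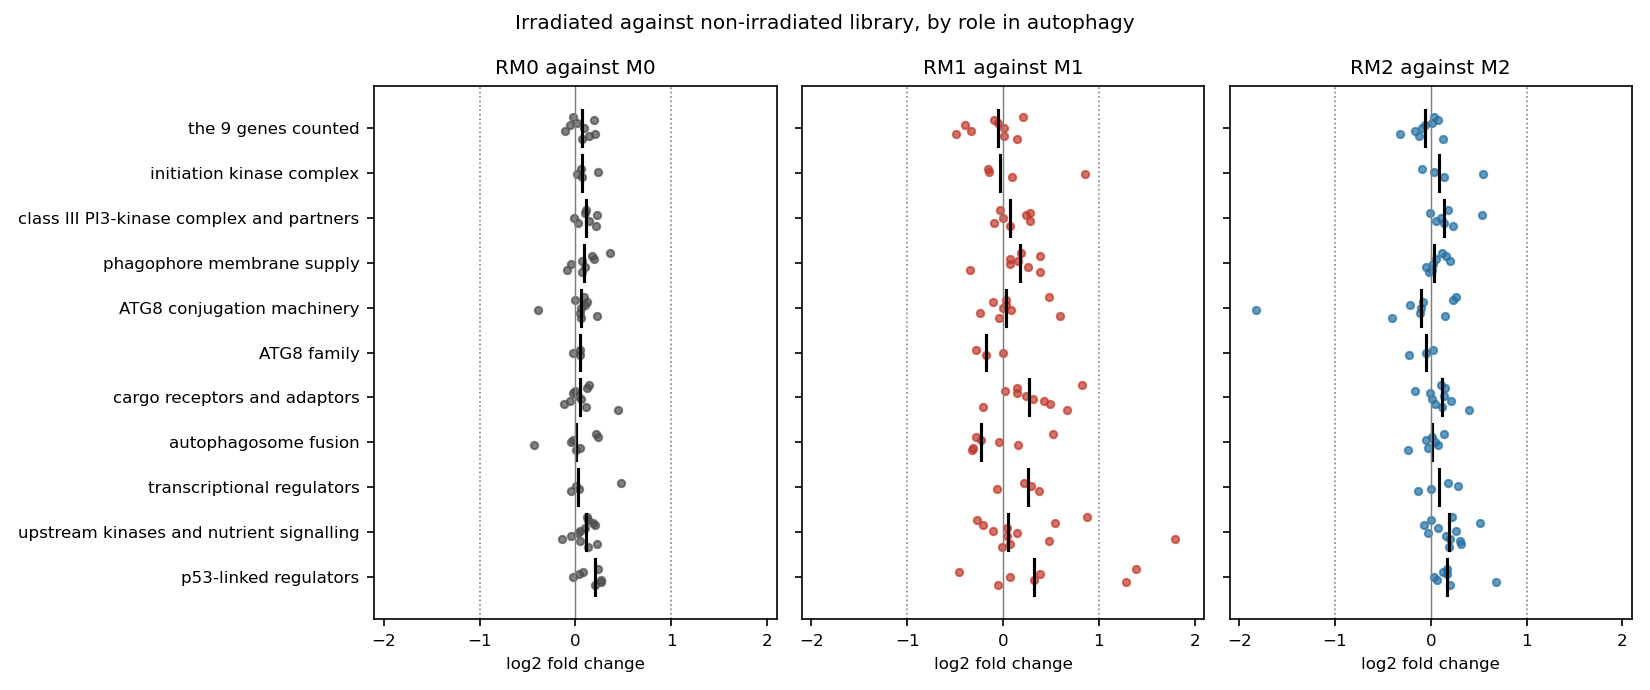
Log2 fold change of each autophagy gene after irradiation in the M0, M1 and M2 states, by role, with the 9 genes counted in the top row. Points are genes, black bars are medians of the row and dotted lines mark 2-fold. The 9 genes lie between -0.49 and 0.21, and the genes beyond 2-fold are Rragd, Trp53inp1 and Ddit4 in RM1 against M1 and Atg4a in RM2 against M2.

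For the 2 genes whose highest and lowest libraries differed at least 2-fold, Gabarapl1 (2.63-fold) and Wipi1 (2.12-fold), the most similar patterns over the 6 libraries were looked up among 9412 genes with at least 100 counts on average. The measure was the Euclidean distance between log2 CPM centred on each gene's mean. Closest to Gabarapl1 were Tor3a (distance 0.0817), Fbxl5 (0.105) and Daxx (0.116), and closest to Wipi1 were Sh3pxd2b (0.13), Mt2 (0.143) and Sf3b1 (0.145). Over 6 libraries that differ mainly by M1 polarization many genes can lie close together.

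Some exons overlap genes on the other strand, and whether the counting used strand is not given in the sources used here. The overlap was 43.9% of annotated exon bases for Becn1 (with Cntd1), 28.3% for Gabarapl1 (with 1700101I11Rik), 17.3% for Sqstm1 (with Mrnip), 1.95% for Optn and 0.772% for Map1lc3b. The overlapping genes had from 1 to 7 counts (Cntd1), from 2 to 22 (1700101I11Rik) and from 48 to 70 (Mrnip), far below the gene on the other strand. Zcchc14, which overlaps Map1lc3b, had from 249 to 799 counts, against 2509 to 2998 for Map1lc3b. These counts do not show how reads in the overlapping exons were assigned. That also bears on the per-kilobase values of Becn1, Gabarapl1 and Sqstm1.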

How the data were processed

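RNA-seq was performed on 6 RAW264.7 libraries, 1 per condition, grouped by their titles. Per the submitters' processing notes, reads were trimmed with Trimmomatic (0.36), aligned with HISAT2 (2.2.1) to mm10 and counted with HTSeq (0.11.3). The authors deposited raw counts per gene, without normalization, for 24062 genes, of which 8137 had 0 counts in all 6 libraries. Library totals ranged from 17894937 to 18870516 counts. Beside the counts, the tables held gene annotation columns.

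Counts were scaled by TMM in edgeR (4.0.16, R 4.3.3), with a prior count of 2 for log2 fold changes. No fold was computed where both libraries had 3 counts or fewer. The 95% counting intervals follow Clopper and Pearson for the fraction of a gene's reads that fell in either library. A 2-fold call compares 2 libraries, not conditions, and has no p-value. The edgeR quasi-likelihood test was two-sided, used genes that reached 10 counts in 3 or more libraries (11574 genes, 2 residual degrees of freedom, coefficient of variation 0.107) and an adjusted p of 0.05. The SE was derived from the fold change and its F statistic and is approximate. p-values measure the spread between these libraries, with states in the place of replicates.

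The 10 genes, the wider list and the tests were chosen with earlier results of these data known. All 10 genes were named, as were genes of the wider list that passed 2-fold or the test, at most the 4 with the largest fold per role group and comparison. Genes named outside this rule are marked in the text. Symbols were matched to the tables directly or through RefSeq synonyms (GRCm38.p6). A further motif result is not reported here. Transcript length, GC content and exon overlap came from GENCODE M21. Alternatives were DESeq2 (1.42.0) size factors or test, library totals, a prior count of 0.25, other count filters and thresholds, removal of the GC trend, a model with the tested effect alone, and each state left out. Tables and plots were made in Python 3.11.15 (pandas 2.3.3, numpy 2.4.6, matplotlib 3.10.9, scipy 1.17.1).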

Additional observations from a re-analysis of the deposited data

Results flagged for a closer look

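With TMM, Map1lc3b and Atg7 differed after irradiation in opposite directions between states, with counting intervals on opposite sides of 0. For Map1lc3b the log2 fold change was 0.09 (0.01 to 0.16) in RM0 against M0 and -0.09 (-0.17 to -0.01) in RM2 against M2. With library totals these were 0.03 and -0.14, and with the GC trend removed 0.08 and -0.06, so their size depends on the scaling. For Atg7 the log2 fold change was 0.19 (0.09 to 0.28) in RM0 against M0 and -0.10 (-0.20 to -0.01) in RM1 against M1, and the latter turned to 0.01 with library totals. With the GC trend removed the Atg7 values were 0.17 and -0.02. With 1 library per condition the difference between states was not tested.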

How the results depend on the processing

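No paired analysis by replicate number was made, since each condition has 1 library. The test itself has polarization and irradiation as terms and so compares irradiated with non-irradiated libraries within each state. Of the counts of calls, 146 recomputed values stayed within 1.5 times of the reported count and 32 did not. Of the values of single genes under the alternatives, 245 stayed in place, 48 moved by more than the counting error, 6 lost and 1 gained a call, and 1 reversed (Sqstm1 for M1 polarization, to -0.29 with library totals). Of the 9 genes, the number called in M1 against M0 was 0 with library totals, 2 at 1.5-fold and 0 at 4-fold. In RM1 against RM0 it was 1 with the GC trend removed and 3 at 1.5-fold, and in RM2 against RM0 it was 1 at 1.5-fold. With no count minimum, 1 of all 10 genes was called in RM1 against RM0. That was Optn, with 3 counts against 0, whose fold is not given. For M1 polarization 3 passed the test with library totals and 3 without M2 and RM2, and for M2 polarization 1 without M1 and RM1. Of the wider list, the number called in M1 against M0 was 11 with library totals, 19 at 1.5-fold and 1 at 4-fold. In RM1 against M1 it was 8 at 1.5-fold and 0 at 4-fold. In RM2 against M2 it was 0 with at least 50 counts, 2 at 1.5-fold and 0 at 4-fold. In RM1 against RM0 it was 3 with library totals, 2 with the GC trend removed, 14 at 1.5-fold and 0 at 4-fold, and in RM2 against RM0 0 with at least 50 counts, 5 at 1.5-fold and 0 at 4-fold. Of all genes, 5266 of 11778 passed 1.5-fold in M1 against M0 and 3826 of 11713 in RM1 against RM0. The counts were 2073 of 11443 in RM1 against M1, 850 of 11801 in RM2 against M2 and 1194 of 11748 in RM2 against RM0. Such counts for the other changed settings of the 2-library calls are not given here. For irradiation the test passed 1 gene of the wider list with no count filter, 3 without M0 and RM0, 6 without M1 and RM1, 1 without M2 and RM2, 1 with DESeq2 and 1 at an adjusted p of 0.1, and for M2 polarization 3 without M1 and RM1. With DESeq2, 80 of all 11574 genes passed as higher and 35 as lower for irradiation. The fits without a state had 1 residual degree of freedom and a filter of at least 10 counts in at least 2 libraries. How many of all genes passed in those fits is not given here, so their counts cannot be set against a background. The cause of these shifts was not tested.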
